A study of Mus musculus with 20 samples.

Results

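The ascending aorta of male double-knockout mice after 30 weeks on a high fat diet was compared with the same tissue after 18 weeks on that diet. The comparison holds 6 of the series' 20 arrays, chosen by their titles: 3 arrays of week 30 high fat aorta and 3 arrays of week 18 high fat aorta. The labels give every mouse, the chow-fed ones included, the double knockout genotype Apobtm2Sgy/Ldltm1Her, whose first allele is named for Apob, the gene of the main protein of low density lipoprotein particles. The labels also describe the tissue of every group as holding an atherosclerotic lesion, and they write the same number of weeks as age and as time on the diet. Chow aortas of weeks 30 and 18, 3 arrays each, served to show what the same weeks brought without the high fat diet. The other groups (chow at weeks 0 and 6, high fat at week 6) entered the fit for the shared estimate of spread. Nothing in the labels says that replicates came from separate animals, and p-values here rest on the spread between samples only, part of which may be technical.

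MicroRNAs (miRNAs) are short RNAs that pair with messenger RNAs, mainly through the seed, bases 2 to 8 of the mature strand, and lower the output of the target. In the vessel wall, miR-143 and miR-145 mark contractile smooth muscle, miR-126 marks endothelium, and miR-142, miR-223 and miR-150 mark blood-derived leukocytes. A lesion is built from lipid, macrophages, smooth muscle and matrix, and an aortic sample can also carry heart muscle, fat and blood. In such a bulk sample, fewer cells of a type and less of a miRNA per cell cannot be told apart.

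RNA of each sample was read on a separate 1-colour Agilent array for mouse miRNAs. Values are spot intensities summarised per miRNA, divided by a 75th percentile of their array and given on the log2 scale with a floor of 3.10. A miRNA called detected had at least 0.5 of the spots of a probe well above background. Of 1881 mouse miRNAs on the array, 609 were tested, those seen on each array of some group.

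The miRNAs below have the smallest p in either direction of the high fat step, or share a seed with one of them, and the results turn on them. Sequences are mature strands from RefSeq (GRCm38.p6), 5′ to 3′, with the seed in capitals. The first set lay lower at week 30 and is ordered by seed, so that relatives stand together.
miR-204-5p: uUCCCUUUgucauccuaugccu
miR-211-5p: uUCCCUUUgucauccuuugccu
miR-10b-5p: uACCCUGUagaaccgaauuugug
miR-10a-5p: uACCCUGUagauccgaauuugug
miR-16-5p: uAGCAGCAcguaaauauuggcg
miR-15a-5p: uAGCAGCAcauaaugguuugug
miR-195a-5p: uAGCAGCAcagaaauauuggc
miR-98-5p: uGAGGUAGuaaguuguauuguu
let-7f-5p: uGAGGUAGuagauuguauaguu
let-7i-5p: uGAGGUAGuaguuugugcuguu
miR-142a-3p: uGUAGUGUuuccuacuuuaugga
miR-146a-5p: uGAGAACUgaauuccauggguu
miR-7a-5p: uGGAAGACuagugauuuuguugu
miR-338-3p: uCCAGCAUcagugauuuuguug
miR-350-3p: uUCACAAAgcccauacacuuuc
miR-374c-5p: aUAAUACAaccugcuaagug
The second set lay higher at week 30 and no seed occurs more than once in it.
miR-5135: aGGUCUAGguggcaagggcguccu
miR-193a-5p: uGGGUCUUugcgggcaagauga
miR-193b-5p: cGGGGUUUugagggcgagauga
miR-193b-3p: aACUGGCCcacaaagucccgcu
miR-8094: aACUGAAGgacaacgagaaga
miR-7027-5p: uGGAAAGGaagaaacagcagagc
miR-295-5p: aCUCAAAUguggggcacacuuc
miR-7672-5p: cGGUGGACuugacagcgggcga

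In build mm9, the probe positions of the files place miR-204-5p at chr19:22825103-22825121, and in GRCm38.p6 its gene Mir204 lies within Trpm3, a protein-coding ion channel gene. miR-211-5p, which has the same seed, comes from Mir211 within the related gene Trpm1. miR-10b-5p lies at chr2:74564134-74564153, within the span of Hoxd3 and Hoxd4, and miR-10a-5p comes from a gene within Hoxb3. miR-142a-3p lies at chr11:87756904-87756925 and miR-350-3p at chr1:178702519-178702537. miR-16-5p is made from genes within Smc4 and within the long non-coding Dleu2, and let-7f-5p from genes on chromosomes 13 and X. These spans hold the miRNA on either strand, and exon or intron was not resolved.

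The 6 arrays did not fall into the groups of weeks. Over the miRNAs detected on all 20 arrays, week 30 replicates 2 and 3 differed with an SD of 0.18 on the log2 scale. The SD was nearly as small between arrays of different weeks, at 0.19 between week 30 replicate 2 and week 18 replicate 3, and 0.33 between week 30 replicate 3 and week 18 replicate 3. Whether these 3 arrays were made from one RNA or carry exchanged labels was not tested, and every difference between the weeks below takes the labels as given. Within week 30, replicate 1 differed from the others with an SD of 1.20 and 1.23, and within week 18 the SD ran from 1.02 to 1.80. Over all 9 pairs across the weeks the median was 1.18. Week 30 replicate 1 was nearest to week 18 chow replicate 1 (0.71), and week 18 replicate 2 to week 18 chow replicate 3 (0.51).

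The slides split the comparison unevenly. All 3 week 30 arrays and week 18 replicate 3 shared slide 3, while week 18 replicates 1 and 2 lay on slide 2 with the chow arrays of both weeks. For 8 arrays of the series, the slide position in the description differed from that in the file, and by the description 1 of the week 18 high fat arrays would be a chow array. Detected miRNAs numbered 355, 742 and 645 on week 30 replicates 1 to 3, against 645, 556 and 328 on week 18 replicates 1 to 3. Negative controls had an SD of 2.14 to 2.16 intensity units on the week 30 arrays, against 2.24, 2.34 and 22.3 units on week 18 replicates 1 to 3, and on the last of these the medians of the kinds of negative control spanned -20.7 to 35.2. The lowest scaled log2 value detected was 5.09 on week 18 replicate 3, against 1.62 to 2.90 on the other high fat arrays. Values under 5.09 on that array were not detected, and an overlap or gap between the weeks that rests on them is not a measured order.

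**Figure D1:**
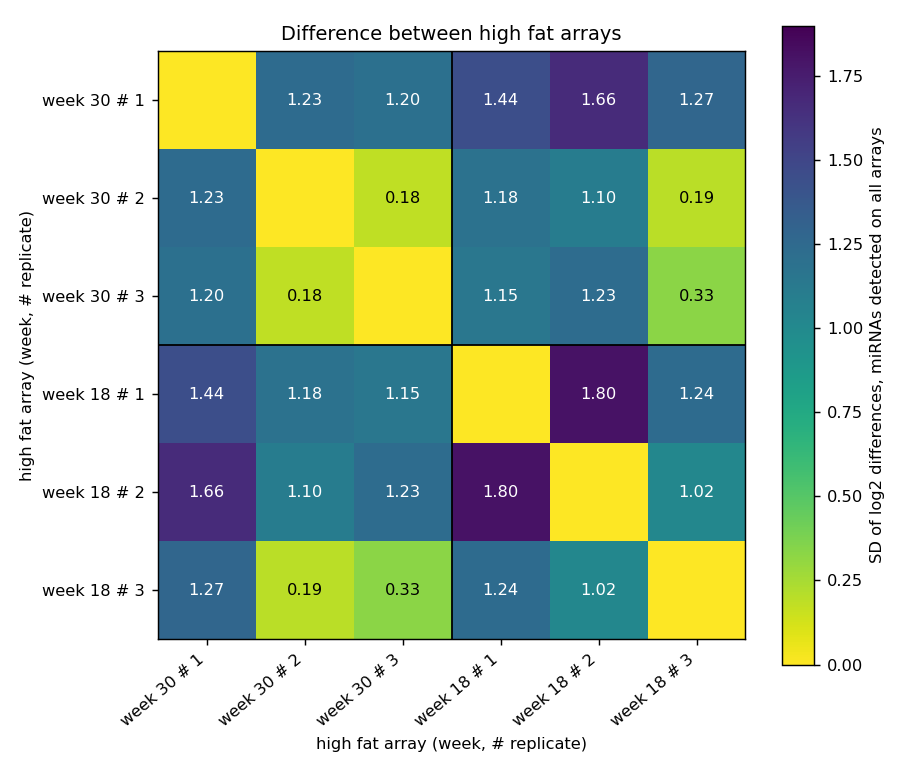
SD of the log2 differences between each pair of the 6 high fat arrays over the miRNAs detected on all 20 arrays; rows and columns are arrays named by week and replicate number, week 30 before week 18, and black lines part the weeks. Week 30 replicates 2 and 3 and week 18 replicate 3 differ from one another by 0.18 to 0.33, and every other pair differs by more than 1.

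The step from week 18 to week 30 on the high fat diet asked how the miRNAs of an established lesion changed with longer feeding. No miRNA passed: 0 of 609 (0%) had an adjusted p under 0.05 with limma and Benjamini-Hochberg adjustment, and the smallest adjusted p was 0.811. At an unadjusted p under 0.05 stood 19 of 609 miRNAs, 15 lower and 4 higher at week 30. This is a smaller share than the 0.05 that would be seen on average without any change. The median difference (week 30 minus week 18) was -0.12 on the log2 scale, and 341 miRNAs (56.0%) were below 0. That share was 16.3% with normexp background correction, where the median was 0.31, and 88.2% without scaling, where it was -0.66, so signs below are relative to the scaling used. The normexp setting adds an offset of 50 intensity units to each spot before scaling, which weighs most on dim miRNAs. The median standard error was 0.62, so that a typical 95% confidence interval reached 1.31 on either side of its difference.

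All 3 week 30 arrays lay below all 3 week 18 arrays for 27 of 609 miRNAs (4.43%), of which 17 were detected on all 6 arrays. The opposite held for 20 of 609 (3.28%), of which 11 were detected on all 6. Between the chow arrays of the same weeks, 1 miRNA lay entirely lower and 19 entirely higher at week 30. The smallest p that an exact test of 3 arrays against 3 can give is 0.1, and the shares of 4.43% and 3.28% together stay under it. Groups without overlap therefore do not by themselves mark a change. The differences described below are values without a call, and none of these miRNAs passed.

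miR-204-5p, which restrains the bone program of vascular smooth muscle by targeting Runx2, had the smallest p of the high fat step. It stood at 5.02, 5.14 and 4.997 at week 30, against 5.61, 6.10 and 6.54 at week 18. The groups did not overlap, and the week 30 arrays spanned 4.997 to 5.14, replicate 1 included. The difference was -1.03 (SE 0.36, 95% confidence interval -1.79 to -0.27), a 2.04-fold lower intensity, with an adjusted p of 0.811 in limma. The 3 week 30 high fat arrays were the lowest of all 20 arrays, of which the other 17 spanned 5.32 to 6.54. On chow, miR-204-5p stood at 5.98, 6.37 and 5.57 at week 30, against 5.56, 6.00 and 5.84 at week 18, a difference of 0.17.

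Week 18 replicate 3 shared slide 3 and nearly the whole profile of week 30 replicates 2 and 3, and single miRNAs were set against it. Of the miRNAs detected on all 20 arrays, 1 differed by more than 1 on the log2 scale between week 30 replicate 2 and week 18 replicate 3, and it was miR-204-5p, at -1.41. It was also the 1 miRNA beyond that limit between week 30 replicate 3 and week 18 replicate 3, at -1.54. Between week 30 replicate 1 and week 18 replicate 3, 73 miRNAs differed by more than 1, miR-204-5p at -1.52 among them. Within slide 3 the difference of miR-204-5p was -1.49, and without week 18 replicate 3 it was -0.80 with an unadjusted p of 0.0562 in limma. Some miRNAs not detected on all 20 arrays differed more within slide 3, among them miR-211-5p at -3.55, miR-34b-3p at -2.35 and miR-8094 at 1.72. The mature strands of miR-204-5p and miR-211-5p differ by 1 base, and close relatives can hybridise to one another's probes. Whether this raised miR-204-5p on week 18 replicate 3 was not tested. That array, on which the slide 3 differences rest, had negative controls with an SD of 22.3 units.

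Both probes of miR-204-5p put the 6 arrays in the same order before scaling. The brighter one averaged 14.9, 82.8 and 48.4 intensity units at week 30, against 87.6, 104 and 217 units at week 18. The dimmer one averaged 3.25, 23.7 and 15.6 units at week 30, against 30.4 and 35.1 units on week 18 replicates 1 and 2. On week 18 replicate 3 it was brighter still, with 7 of 15 spots well above background. Values before scaling also carry the brightness of each array. The 75th percentiles used for scaling were 254, 1372 and 908 units at week 30, against 1095, 921 and 1653 units at week 18. With normexp background correction in place of the processed intensity, the difference of miR-204-5p was 0.00, while the median of all tested miRNAs moved to 0.31. The offset of 50 units in that setting exceeds the 3.25 to 23.7 units that the dimmer probe averaged at week 30. How far the offset set this value was not tested. The difference of miR-204-5p was negative under the other alternatives, at -0.92 with quantile normalization and -0.75 with the GC trend removed from each array.

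**Figure D2:**
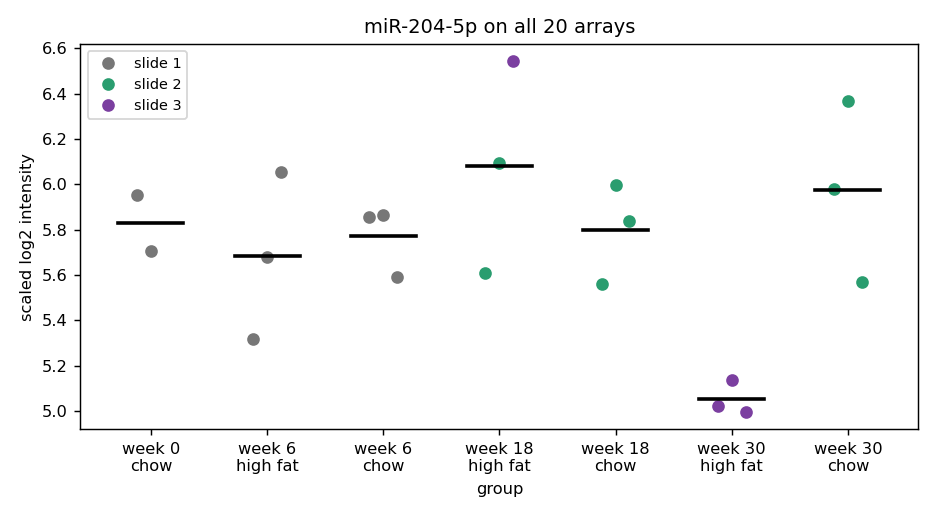
Scaled log2 intensity of miR-204-5p on each of the 20 arrays by week and diet; points are arrays coloured by slide, horizontal lines are group means, and the axis does not start at 0. The 3 week 30 high fat arrays sit between 4.997 and 5.14, below the lowest of the other arrays at 5.32.

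miR-211-5p, the relative with the same seed, read differently. It was detected on 1 of the 6 arrays, week 18 replicate 3, at 6.74. On the week 30 arrays it was not well above background, with measured values of 3.37, 3.10 and 3.10, and stood at 3.10 and 3.59, also not detected, on week 18 replicates 1 and 2. Taken over the groups, it was 2.44-fold lower at week 30 (measured means 3.19 and 4.47, adjusted p = 0.811 in limma), a size that depends on the floor. All 4 of its probes were bright on that 1 array, at 168 to 216 units, against at most 14.5 units on the others. Being highest of the 6 arrays by more than 1 on the log2 scale was not particular to that array: this held for 19, 0 and 0 of 609 miRNAs on week 30 replicates 1 to 3, against 49, 33 and 35 on week 18 replicates 1 to 3. Of the 35 on week 18 replicate 3, 16 were well above background on that array. Only 2 of the 35 were well above background on none of the other 5 arrays. With the slide as a fixed block, a fit in which week 18 replicate 3 carries the whole comparison, miR-211-5p was called (-3.55, adjusted p = 0.00799) and miR-204-5p was not (adjusted p = 0.371).

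The miRNAs of endothelium came next. miR-10b-5p, known for high levels in endothelium and for its place among the Hox genes, stood at 5.14, 6.73 and 6.47 at week 30, against 9.03, 7.61 and 6.93 at week 18. The groups did not overlap, with week 30 replicate 1 lowest and week 18 replicate 1 highest. The difference was -1.75 (SE 0.62, 95% confidence interval -3.05 to -0.45). Its sister miR-10a-5p stood at 6.25, 7.79 and 7.54 at week 30, against 8.34, 8.31 and 7.98 at week 18 (-1.02, SE 0.47). miR-126a-3p, the abundant endothelial miRNA from the Egfl7 gene, stood at 9.53, 11.35 and 11.17 at week 30, against 11.04, 12.04 and 11.40 at week 18, and its groups overlapped. The 4 tested endothelial members are both arms of miR-126a and the same-seed relatives miR-10a-5p and miR-10b-5p, so they are not separate observations. All 4 had negative differences, with a median of -1.15 beside -0.12 for all miRNAs. Without week 30 replicate 1 that median was -0.46, and within slide 3 it was -0.80.

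All 4 tested leukocyte miRNAs had negative differences, but miR-142a-3p and miR-142a-5p come from the same gene and are not separate observations. The difference of miR-142a-5p was -1.76. Within slide 3 it turned to 0.33, whereas that of miR-142a-3p was -1.44. miR-142a-3p, found in nearly all blood-derived cells, stood at 3.29, 6.20 and 5.93 at week 30, of which the first was not detected, against 9.11, 7.95 and 6.57 at week 18. The groups did not overlap, and the difference of -2.74 (SE 1.01, 95% confidence interval -4.88 to -0.61) was the lowest of all 609. miR-223-3p, a miRNA of neutrophils and other myeloid cells, stood at 6.69, 7.09 and 6.87 at week 30, against 8.87, 7.72 and 7.33 at week 18 (-1.09, SE 0.56), and its groups did not overlap either. miR-150-5p, a miRNA of mature lymphocytes, stood at 8.62, 5.48 and 5.39 at week 30, against 10.51, 7.18 and 5.78 at week 18, so that in both weeks replicate 1 was highest. Its difference was -1.33, and 0.01 without week 18 replicate 1. The median of the 4 members was -1.54. The mean of the 4 members was 5.42, 5.66 and 5.37 on the week 30 arrays, against 8.79, 7.16 and 5.70 on the week 18 arrays. Within slide 3, where the week 18 sample is replicate 3 alone, the median was -0.06, without week 18 replicate 3 it was -2.58 and without week 18 replicate 1 it was -0.83.

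Of 4 tested miRNAs switched on by NF-kB signalling, 3 were negative. Their median was -0.62, which turned to 0.17 without week 18 replicate 1, to 0.37 within slide 3 and to 0.06 with normexp. miR-146a-5p, which damps Toll-like receptor signalling, stood at 3.10, 3.55 and 3.36 at week 30, against 7.82, 5.61 and 3.10 at week 18, where replicate 3 was at the floor. Its difference was -2.17 (SE 0.92) and turned to 0.24 within slide 3. miR-155-5p, induced in activated macrophages, stood at 6.10, 4.64 and 4.89 at week 30, against 8.26, 5.05 and 4.70 at week 18, and replicate 1 was highest in both weeks. Its difference of -0.79 turned to 0.34 without week 18 replicate 1. miR-132-3p was the 1 positive member of 4, at 4.64, 4.07 and 3.97 at week 30, against 3.90, 3.87 and 3.10 at week 18. miR-21a-5p, abundant in lesions and in fibrotic tissue, stood at 6.62, 10.09 and 10.01 at week 30, against 10.61, 10.75 and 10.21 at week 18. The groups did not overlap, but the difference of -1.62 (SE 0.78) was -0.47 without week 30 replicate 1.

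Further miRNAs among the lowest had no tissue list of their own. miR-350-3p stood at 4.81, 5.52 and 5.32 at week 30, against 6.29, 6.63 and 6.08 at week 18 (-1.11, SE 0.41). miR-338-3p, known from oligodendrocytes, stood at 4.13, 5.76 and 5.53 at week 30, against 6.64, 7.66 and 5.91 at week 18 (-1.60, SE 0.66). miR-7a-5p, a miRNA of endocrine and nerve cells, stood at 3.10, 3.75 and 3.39 at week 30, against 4.82, 5.07 and 4.14 at week 18 (-1.26, SE 0.52). The groups did not overlap for any of these, and week 30 replicate 1 was lowest and not detected for each. miR-374c-5p stood at 3.10, 3.75 and 3.30 at week 30, against 5.61, 5.08 and 3.67 at week 18, where replicate 3 overlapped the week 30 arrays. For miR-7a-5p and miR-374c-5p, week 18 replicate 3 lay under 5.09, the lowest value detected on that array.

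**Figure D3:**
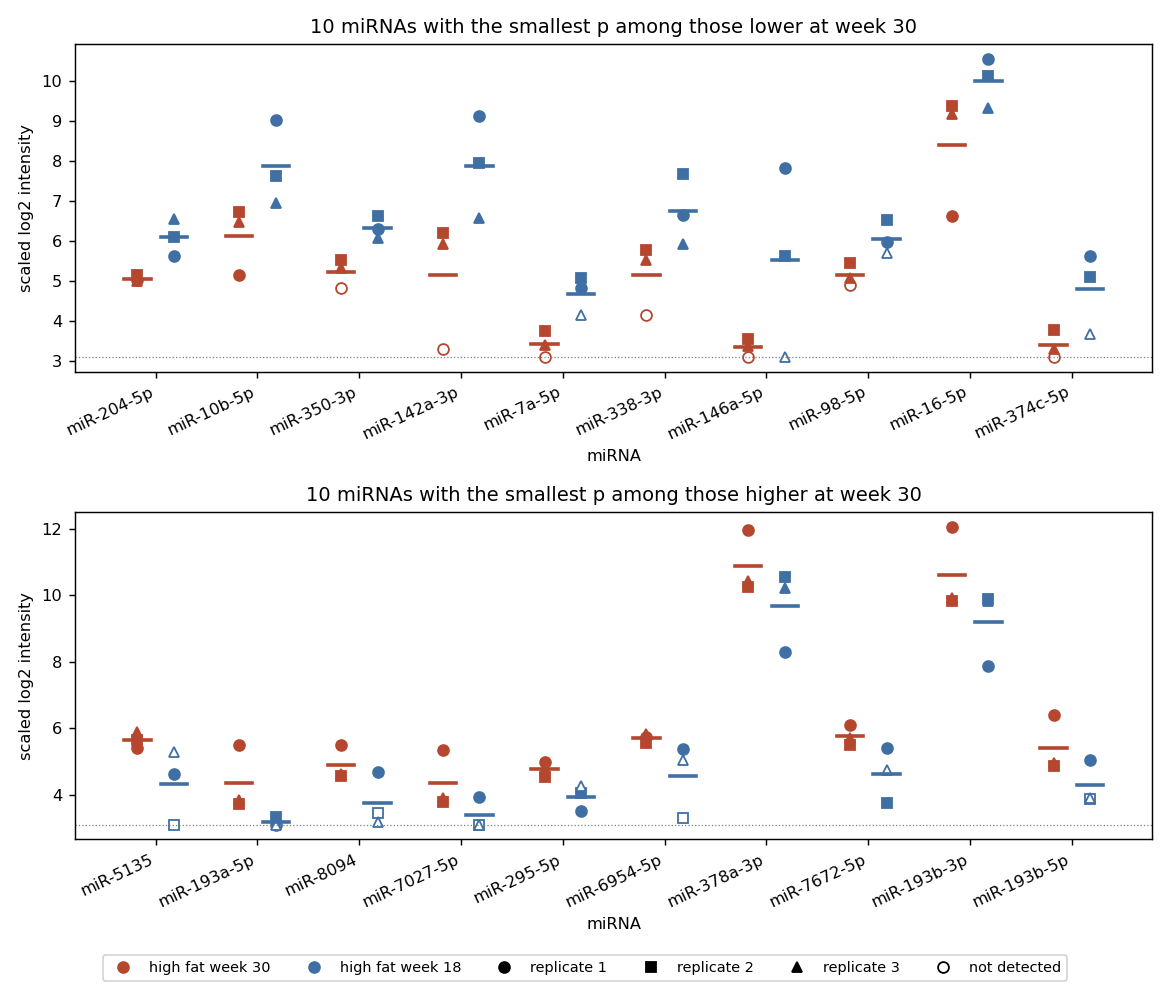
Scaled log2 intensity of the 10 miRNAs with the smallest p in each direction, week 30 high fat left of week 18 high fat; marker shapes are replicates, open markers are arrays where the miRNA was not detected, short lines are means of 3 arrays, and the dotted line is the floor of 3.10. In the upper panel replicate 1 of week 30 is often lowest and replicate 1 of week 18 often highest; in the lower panel miR-378a-3p and miR-193b-3p overlap between the weeks.

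Among the miRNAs with higher values at week 30 were those of brown fat and several without a list. miR-193b-3p, needed for brown fat cells to form in culture, stood at 12.06, 9.83 and 9.91 at week 30, against 7.88, 9.88 and 9.82 at week 18. The groups overlapped: week 30 replicate 1 was high, week 18 replicate 1 was low, and the other 4 arrays lay between 9.82 and 9.91. The difference was 1.40 (SE 0.71, 95% confidence interval -0.09 to 2.90). miR-378a-3p, made from the gene of the metabolic coactivator PGC-1 beta, followed the same order, at 11.95, 10.25 and 10.42 at week 30, against 8.29, 10.53 and 10.20 at week 18 (1.20, SE 0.59). The minor arm miR-193b-5p stood at 6.39, 4.85 and 4.95 at week 30, against 5.05, 3.88 and 3.91 at week 18 (1.12, SE 0.58). Of 8 tested members of the brown fat list, 6 were positive, with a median of 1.03. That median was 0.37 without week 30 replicate 1 and 0.34 without week 18 replicate 1. It turned to -0.19 without both of these arrays, and to -0.09 with arrays assigned by the position in the description.

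miR-193a-5p stood at 5.49, 3.71 and 3.83 at week 30, against 3.10, 3.31 and 3.10 at week 18 (1.18, SE 0.49), without overlap. miR-5135 had the smallest p of the higher miRNAs, at 5.40, 5.64 and 5.89 at week 30, against 4.61, 3.10 and 5.29 at week 18 (1.31, SE 0.51). miR-295-5p, from a cluster of embryonic stem cells, stood at 4.98, 4.53 and 4.76 at week 30, against 3.50, 4.06 and 4.24 at week 18 (0.83, SE 0.39). The groups of these 3 miRNAs did not overlap, but miR-193a-5p and miR-295-5p on week 18 replicate 3 lay under 5.09, the lowest value detected on that array. Without week 30 replicate 1 the difference of miR-193a-5p was 0.60, and without week 18 replicate 2 that of miR-5135 was 0.69. miR-6954-5p and miR-7672-5p were apart as well, and miR-7027-5p and miR-8094 were not. The differences of these 4 ran from 0.96 to 1.15, but that of miR-7027-5p was 0.46 without week 30 replicate 1, and those of miR-6954-5p and miR-7672-5p were 0.51 and 0.69 without week 18 replicate 2. miR-210-3p, the miRNA most directly induced by low oxygen, stood at 6.54, 6.39 and 6.46 at week 30, against 5.56, 6.00 and 6.12 at week 18, without overlap (0.57, SE 0.42), and its difference turned to -0.23 without scaling. On chow miR-210-3p differed by -0.55.

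The smooth muscle miRNAs, which check the labelled tissue, were detected on all 6 arrays for 2 of 3 tested members, and their median difference of 0.30 turned to -0.49 without scaling, to -0.22 within slide 3 and to -0.25 without week 18 replicate 1. miR-145a-5p stood at 9.98, 9.51 and 9.57 at week 30, against 9.47, 9.23 and 9.42 at week 18 (0.31, SE 0.36), and the groups did not overlap. miR-143-3p, made from the same transcript, stood at 8.95, 11.02 and 11.01 at week 30, against 9.86, 11.07 and 11.02 at week 18 (-0.32, SE 0.55). Replicate 1 was lowest in both weeks for miR-143-3p. miR-221-3p, which promotes growth of smooth muscle, stood at 4.98, 4.81 and 4.63 at week 30, against 5.88, 5.27 and 5.47 at week 18 (-0.73, SE 0.44), while its neighbour miR-222-3p overlapped between the weeks (-0.22, SE 0.62).

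Markers of neighbouring tissues varied from array to array. For striated muscle, miR-133a-3p stood at 12.21, 9.58 and 9.37 at week 30, against 8.17, 12.13 and 9.58 at week 18. The heart and skeletal muscle miRNA miR-1a-3p stood at 7.37, 10.33 and 10.08 at week 30, against 7.42, 12.79 and 10.50 at week 18. The 2 miRNAs ordered the arrays differently, with week 30 replicate 1 highest for miR-133a-3p and lowest for miR-1a-3p. Of 5 tested members of the list, 2 were positive and 3 negative, and their mean spanned 8.24 to 8.65 over the week 30 arrays and 6.57 to 10.75 over the week 18 arrays. The part of striated muscle in the other differences was not tested.

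The mean of the epithelial list was highest on week 18 replicate 2. The miR-200 family member miR-200c-3p was not well above background on any week 30 array, at the floor of 3.10 on all of them, against 4.25, 5.55 and 3.10 at week 18. It was 2.30-fold lower at week 30 (measured means 3.10 and 4.30, adjusted p = 0.811 in limma), a size that depends on the floor. All 9 tested members were negative with a median of -1.02, which was 0.25 with normexp background correction, and 0 of them was detected on all 6 arrays. Their mean was 3.37 to 3.38 on the week 30 arrays, against 3.67, 5.59 and 3.54 on the week 18 arrays. Without week 18 replicate 2 the median was -0.21. For red blood cells, miR-451a stood at 9.42, 11.14 and 10.90 at week 30, against 11.57, 11.90 and 11.21 at week 18, without overlap (-1.07). Of the 4 tested red blood cell members, 3 were negative and miR-486a-5p was positive (0.41). Their median was -0.32, which turned to 0.19 without week 18 replicate 2, to 0.15 with normexp and to 0.24 with the GC trend removed. The liver miRNA miR-122-5p stood at 3.10, 5.49 and 5.26 at week 30, against 4.44, 3.10 and 5.68 at week 18 (0.21). The other tested liver members were negative, miR-192-5p at -0.71 and miR-194-5p at -0.51. The median of the liver list was -0.51, which was -0.18 without week 30 replicate 1 and turned to 0.31 with normexp.

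The let-7 family acts against growth programs. Of the 10 tested miRNAs with the seed printed above for let-7f-5p, 9 were negative, and their median was -0.64. The let-7 list, which lacks let-7k and holds let-7d-3p, an arm with another seed, had a median of -0.79, which was -0.24 with the GC trend removed. let-7f-5p stood at 9.81, 10.63 and 10.34 at week 30, against 11.02, 11.80 and 10.73 at week 18 (-0.92, SE 0.42). let-7i-5p stood at 7.99, 9.61 and 9.35 at week 30, against 9.63, 10.35 and 9.74 at week 18 (-0.92, SE 0.48). miR-98-5p, the member on chromosome X, stood at 4.89, 5.44 and 5.07 at week 30, against 5.96, 6.52 and 5.70 at week 18 (-0.92, SE 0.40). For 4 of the 10 with the seed, week 30 lay entirely below week 18, beside 27 of 609 (4.43%) of all tested miRNAs. Close relatives can hybridise to one another's probes, so the members are not separate measurements. On chow the median of the list was -0.13.

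The miR-15 and miR-16 group, which brakes the cell cycle, had 6 of 6 tested members negative, with a median of -1.08. miR-16-5p stood at 6.63, 9.36 and 9.17 at week 30, against 10.55, 10.13 and 9.32 at week 18 (-1.62, SE 0.71), and the groups overlapped slightly, at 9.36 and 9.32. miR-195a-5p stood at 5.76, 8.35 and 8.16 at week 30, against 8.55, 9.33 and 8.36 at week 18 (-1.32, SE 0.61). Here too week 30 replicate 1 was far lower than the rest, and without it the median of the list was -0.40. miR-148a-3p, which acts on the receptor for low density lipoprotein in liver, stood at 4.40, 7.10 and 6.90 at week 30, against 7.70, 7.62 and 7.12 at week 18 (-1.35, SE 0.65), and the difference was -0.48 without week 30 replicate 1.

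The other families had smaller medians or members of both signs. The miR-29 list holds members of the miR-29 family, which targets collagens and elastin, and miR-29c-5p, an arm with another seed. All 4 tested members were negative with a median of -0.58, which was -0.18 without week 30 replicate 1, -0.25 without week 18 replicate 2 and -0.05 with the GC trend removed. The 3 with the family seed had a median of -0.51. miR-29a-3p stood at 11.47, 11.55 and 11.35 at week 30, against 11.87, 12.18 and 11.55 at week 18 (-0.41, SE 0.37). The miR-181 list, which holds miR-181a-1-3p, an arm with another seed, had 5 of 5 members negative. Its median was -0.43, which was -0.24 without week 18 replicate 1 and turned to 0.32 with normexp background correction. The 4 with the family seed had a median of -0.45. The 14 tested members of the imprinted Dlk1-Dio3 cluster had 12 negative and a median of -0.47, which was -0.17 without week 18 replicate 2 and turned to 0.33 with normexp. The miR-30 list, which also holds opposite arms such as miR-30a-3p, had a median of -0.12, equal to that of all miRNAs. The Sfmbt2 cluster families were listed by the names miR-297, miR-466, miR-467 and miR-669, and whether each member lies within the Sfmbt2 gene was not tested. Of these closely related miRNAs, 33 of 42 were negative, with a median of -0.52, which turned to 0.24 with normexp and to 0.61 with the GC trend removed. It was 0.03 without week 30 replicate 1, and on chow the median was 1.13. For miR-125b-5p the difference was -0.25 (SE 0.44).

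**Figure D4:**
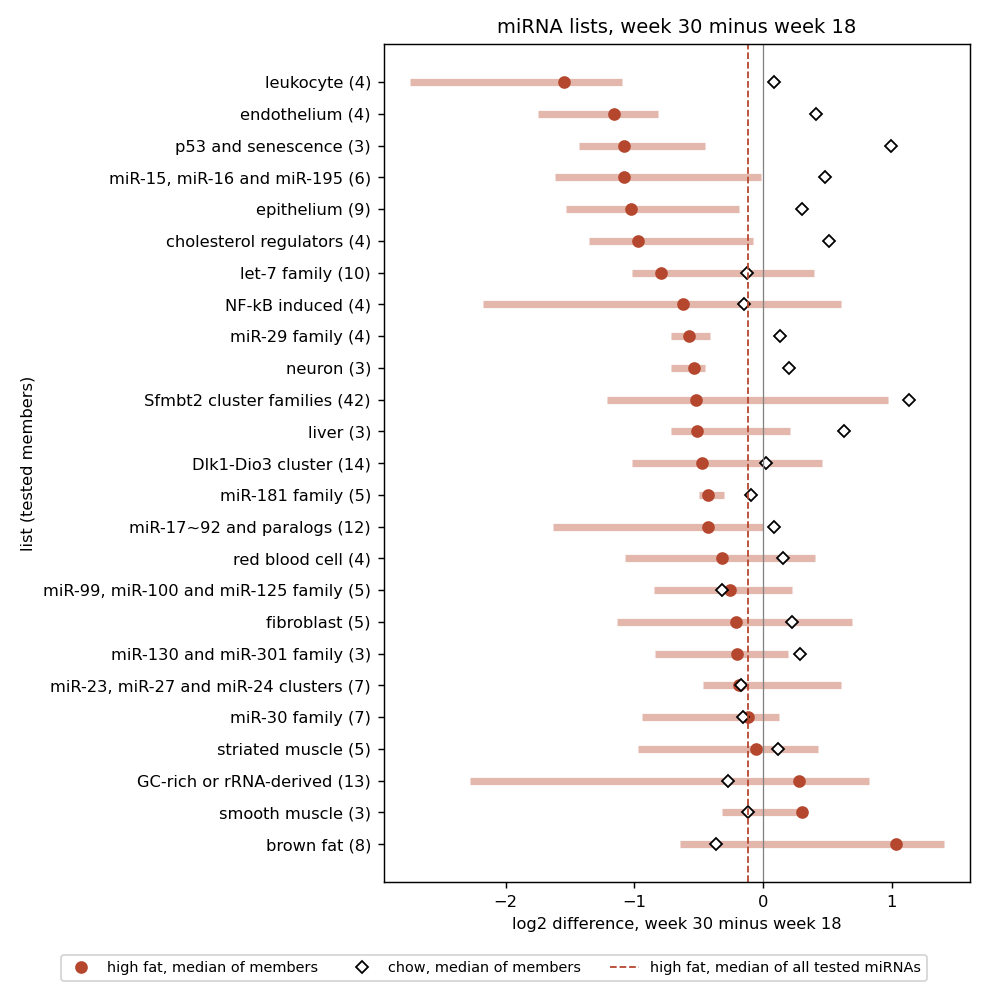
Log2 difference, week 30 minus week 18, for each list with at least 3 tested members; filled circles are high fat medians, bars span the lowest to the highest member on high fat, open diamonds are chow medians, and the dashed line is the high fat median of all 609 miRNAs (-0.12). Leukocyte and endothelial lists lie lowest on high fat, with medians of -1.54 and -1.15, and brown fat lies highest, at 1.03. The leukocyte median was -0.06 within slide 3, the endothelial median was -0.46 without week 30 replicate 1, and the brown fat median was -0.19 without replicate 1 of both weeks.

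The leading miRNAs differed in base composition. The 10 lower ones had a median G and C content of 40.9% (31.8% to 45.5%), and the 8 of the 10 higher ones with a sequence had 56.8% (42.9% to 68.2%), beside 54.5% for the 496 of 609 tested miRNAs with a sequence. Over these 496 miRNAs, which share the 6 arrays and their scaling, the difference and the G and C content correlated with a Pearson r of 0.51 and a Spearman rho of 0.52. The miRNAs with up to 50% G and C had a median difference of -0.47, those in the middle had 0.08 and those above 60.9% had 0.38. On chow the medians ran 0.18, 0.06 and -0.14 and Pearson r was -0.16.

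The relation varied with the arrays used. Without week 18 replicate 2, Pearson r was 0.24, and within slide 3 it was 0.27. The deviation of a single array from the mean of the 6 high fat arrays correlated with the content at -0.56 on week 18 replicate 2, the lowest, and at 0.38 on week 30 replicate 1, the highest. With a straight line on content removed from each array, 0 of 496 miRNAs were called (smallest adjusted p = 0.949, and 12 at an unadjusted p under 0.05). Under that setting, added after the data were seen, miR-142a-3p differed by -2.14 and miR-10b-5p by -1.41. The part of base composition in the differences above was not tested further.

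**Figure D5:**
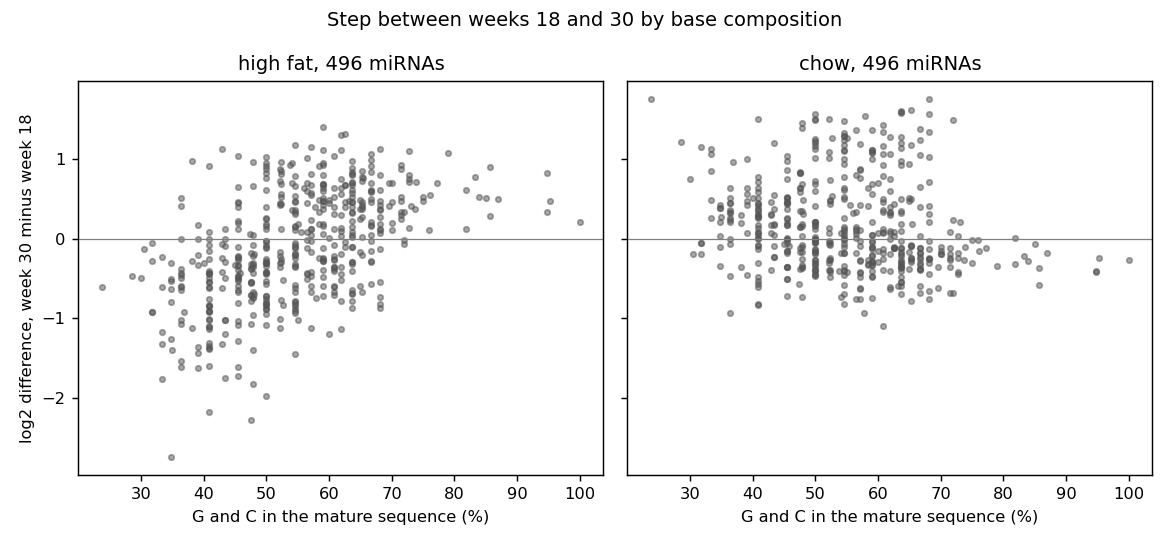
Log2 difference, week 30 minus week 18, against the percentage of G and C in the mature sequence, for the 496 tested miRNAs with a sequence, high fat left and chow right; each point is a miRNA. On high fat the median difference is -0.47 up to 50% and 0.38 above 60.9%, and on chow it is 0.18 and -0.14.

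The difference between the diets in this step was tested as the high fat step minus the chow step. It was called for 0 of 609 miRNAs (0%) with limma, with a smallest adjusted p of 0.600. At an unadjusted p under 0.05 in limma stood 16 miRNAs, again a share below 0.05, and all of them were lower on high fat. The chow step by itself gave 0 calls, with 3 miRNAs at an unadjusted p under 0.05. The smallest p of the difference belonged to miR-669d-3p of the Sfmbt2 cluster families. On high fat miR-669d-3p stood at 3.10, 3.17 and 3.10 at week 30, against 3.10, 4.56 and 4.87 at week 18. On chow its mean was 4.89 at week 30, against 3.50 at week 18. The difference of the steps was -2.45 (SE 0.88, adjusted p = 0.600 in limma).

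Of the 5 miRNAs with the smallest p in that test, 4 belong to the Sfmbt2 cluster families: miR-669d-3p, miR-297a-3p, miR-467e-3p and miR-669l-3p. These 4 had chow steps of 1.14 to 1.59 and high fat steps of -1.05 to -0.80. The remaining one was miR-204-5p, with steps of -1.03 on high fat and 0.17 on chow and a difference of -1.20 (SE 0.51). The steps of miR-142a-3p differed by -3.12 (SE 1.43) and those of miR-10b-5p by -1.92 (SE 0.88). All 3 week 30 chow arrays lay on slide 2 with the week 18 chow arrays, whereas the high fat step crosses slides for week 18 replicates 1 and 2, so that slide and diet cannot be told apart in the difference.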

How the data were processed

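The authors deposited linear spot intensity values. The submitters' processing notes name Agilent Feature Extraction, version 11.5.1, as the tool. The deposited value table holds the same processed intensity (0 of 20 columns unmatched). After leaving out control and outlier spots, a miRNA's value was the mean over its probes of each probe's mean spot. Values were scaled to the 75th percentile of the miRNAs that every one of the 20 arrays detected, floored at 3.10 and put on the log2 scale. The arrays' number limits the precision. Comparisons used limma 3.58.1 (R 4.3.3, lmFit and eBayes) over all 20 arrays in 7 groups, with 13 residual degrees of freedom. Tests were 2-sided, with Benjamini-Hochberg at 0.05 over 609 miRNAs. Named were the 10 with the smallest p in each direction, a panel of 24 (23 tested), up to 3 members of each of 30 lists and the 5 with the smallest p between the diets. The members and lists were chosen with earlier results of these data known. Replicate numbers are shared between the weeks in the labels, and same-numbered arrays deviated together (correlations 0.38, 0.30 and 0.35, beside 0.32 for week 30 replicate 2 with week 18 replicate 3 and 0.12 for replicate 3 with 2, and negative values for the other 4 pairs), so a replicate block was fitted as an alternative. Further alternatives changed background correction, scaling, filters, slide terms and the arrays used.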

Additional observations from a re-analysis of the deposited data

How the results depend on the processing

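For the high fat step, the count of 0 called miRNAs held under all leave-one-out fits (0 to 0) and with the replicate block (0 called, smallest adjusted p = 0.763 in limma). It was 3 with no filter (miR-3065-3p, miR-6950-5p and miR-291a-5p, all outside the main test), 1 with the slide as a fixed block and 1 with that block and the GC trend removed (miR-211-5p each time), and 17 (2 higher, 15 lower) with array weights, among them miR-204-5p (-1.28, adjusted p = 0.0228). For the difference between the diets it was 2 with no filter, 1 with the slide as a fixed block, 1 with that block and the GC trend removed, and 65 (2 higher, 63 lower) with array weights. The cause of each was not tested, except that no filter adds miRNAs to the test.

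The scaling moved the general median, -0.12 as reported, which was 0.31 with normexp background correction, 0.00 with quantile normalization and -0.66 without scaling. Of 2837 values of the 99 named miRNAs under 31 alternatives, 207 had the other sign. Of the 10 lower miRNAs with the smallest p, 6 kept their sign under normexp, 9 within slide 3 or with the slide as a fixed block, and 8 with that block and the GC trend removed. Of the 10 higher, 9 kept theirs without replicate 1 of both weeks. Settings on GC content and on pairs of left-out arrays were chosen after seeing the data. Limits: with 3 arrays a week, 1 week 18 array on slide 3 and 3 near-identical arrays across the weeks, differences under about 1.31 cannot be told from 0 for a typical miRNA.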
